A study of Mus musculus with 24 samples.

Results

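Nuclear genes for the respiratory chain and the ATP synthase were followed in heart, bone and white fat of mice heterozygous for an allele of Ednra and of wild-type mice. The members were all genes whose symbol in the probe annotation begins with Nduf, Uqc, Cox4 to Cox8 or Atp5, together with the Sdh subunit genes, which gave 87 genes with 110 probes among the 16593 genes and 25697 probes of the array. Complex I had 39 of these genes, complex II had 3, complex III had 10, complex IV had 19 and complex V had 16. Complexes I to IV pass electrons from NADH and succinate to oxygen, and complexes I, III and IV pump protons across the inner mitochondrial membrane as they do so. Complex V, the ATP synthase, lets the protons flow back and makes ATP. Heart muscle is packed with mitochondria and runs on this pathway, white adipocytes hold few mitochondria, and several complex IV subunits exist as a heart and muscle form and a form used in most other tissues. Sdha and the subunits encoded by mitochondrial DNA are not analysed here.

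The 24 arrays fell into 6 groups of 4, from male C3HeB/FeJ mice aged 117 days by the labels: heterozygous and wild-type heart, heterozygous and wild-type bone, and heterozygous and wild-type white fat. The mutant allele lies in Ednra, the type A endothelin receptor, spelled Endra in the labels; the series title gives the change as Y129F and presents the line, made by chemical mutagenesis, as modelling VCFS/DGS, the abbreviations of velocardiofacial syndrome and DiGeorge syndrome. The title writes the line as homozygous, whereas the labels of the 12 mutant samples say heterozygote. Hearts came from 8 animals of their own and bone and fat came from shared animals, and a single mouse number stands under both a heterozygous and a wild-type sample in bone and in fat.

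Levels are log2 intensities after background correction, normalized over all 24 arrays, and are compared only within a probe, since probes differ in brightness. Hearts had 9931 to 12143 detected probes, bones 13353 to 13919, and fat samples 12956 to 13710. Heart wild-type array 4 stood apart, with the 9931 detected probes against 11467 or more on the other hearts, and with 23.4% of all genes over 1 log2 unit from the mean of the other wild-type hearts. The labelled tissues carried their markers: Myh6, a cardiac myosin, had 14.23 to 14.48 on heterozygous and 14.31 to 14.56 on wild-type hearts, Bglap, or osteocalcin, had 13.54 to 13.79 in heterozygous and 13.34 to 13.85 in wild-type bones, and Adipoq, or adiponectin, had 14.14 to 14.33 in heterozygous and 13.84 to 14.05 in wild-type fat. Bone also carried skeletal muscle RNA, as all 12 measured markers of that tissue were detected on all 8 bone arrays. Heterozygous fat array 2 alone among the fat arrays held muscle creatine kinase Ckm at 7.64 and Bglap at 7.58, against 4.42 to 4.72 and 4.39 to 4.53 on the other 7.

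Of the 87 members, 81 were measured, with a probe detected on at least 4 of the 8 arrays of some tissue: 38 in complex I, 3 in complex II, 8 in complex III, 17 in complex IV and 15 in complex V. Uqcrfs1, the Rieske protein of complex III, and Atp5k, a membrane subunit of the ATP synthase, were each detected on 2 heart arrays and stayed out. Ndufs1, Uqcrq and the testis forms Cox7b2 and Cox8c were detected on none. Of the 81, 80 passed in each tissue and Cox6a2 passed in heart and bone.

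Wild-type hearts were set against wild-type bones and wild-type fat to show how the tissues differ in this pathway. The chain was higher in heart in all 5 complexes. Against bone, 73 of 81 members were higher and 2 lower in heart (limma, adjusted p under 0.05), where 74.5% of all 10557 genes passed, 41.3% higher and 33.2% lower. Against fat, 72 were higher and 2 lower, where 70.3% of all genes passed, 38.7% higher and 31.6% lower. The median log2 difference of the members was 1.31 between heart and bone, beside 0.14 for all genes, and 1.35 between heart and fat, beside 0.10. Bone and fat had no such common shift, with 30 members higher and 21 lower in bone and a median of 0.053, where 67.8% of all genes passed, 33.4% higher and 34.3% lower. In whole tissue, more cells of a type and more RNA per cell cannot be told apart.

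Heart gave the highest wild-type mean for 73 of 81 members, beside 39.5% of all genes, bone for 3 and fat for 5. For 67 members every heart array of both genotypes lay above every bone and fat array, which held for 16.7% of all genes, and without heart wild-type array 4 the count was 75, beside 20.6%. The heterozygous groups gave a like pattern, with 73 members higher and 1 lower in heart than in bone (73.1% of all genes passed, 40.3% higher and 32.8% lower) and 71 higher and 2 lower in heart than in fat (63.5%, with 33.5% higher and 30% lower). Between heterozygous bone and fat, 20 members were higher and 26 lower (67.4%, with 32% higher and 35.5% lower).

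**Figure D1:**
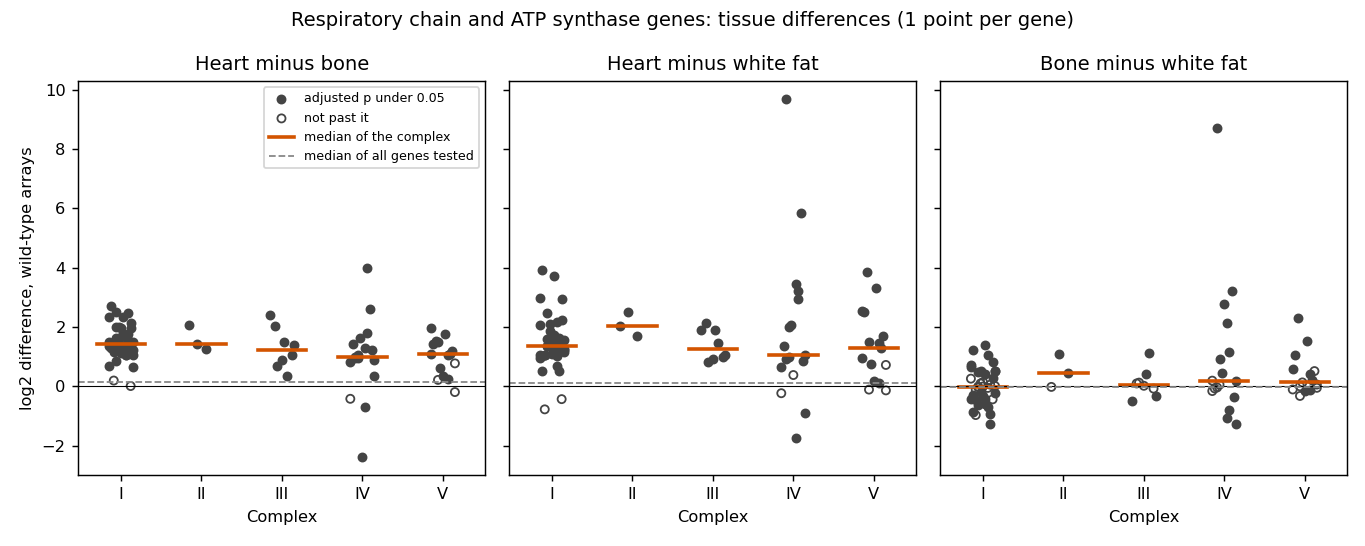
Each point is the log2 difference of 1 gene between tissues on wild-type arrays (n = 4 per group), by complex. The complex medians lie at 0.99 to 1.43 for heart minus bone, at 1.05 to 2.04 for heart minus fat, and at -0.013 to 0.45 for bone minus fat.

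Complex I oxidises NADH, and 36 of its 38 measured genes were higher in heart than in bone (median 1.43) and 36 were higher in heart than in fat (median 1.36). Ndufv1, the flavin-bearing subunit where NADH is oxidised, averaged 13.72 ± 0.016 in heart, 12.87 ± 0.054 in bone and 12.37 ± 0.28 in fat (SD, n = 4 wild-type arrays each, as in all means of this kind). Ndufs7, which holds the last iron-sulfur cluster before the quinone, averaged 13.77 ± 0.16 in heart, 12.41 ± 0.14 in bone and 11.71 ± 0.28 in fat. Ndufs6, an accessory subunit and the brightest complex I probe in heart, averaged 14.51 ± 0.045 in heart, 13.16 ± 0.055 in bone and 12.66 ± 0.16 in fat. Heart lay above bone in each of these genes without overlap, and fat was lowest.

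The widest measured gaps of complex I lay among accessory subunits of its membrane arm. Ndufb2, Ndufb9 and Ndufb7, named here, had dimmer probes in heart than Ndufs6. The part of probe brightness in this order was not tested. Ndufb2 had 10.58, 10.68, 11.08 and 11.15 in heart, 8.14, 8.31, 7.97 and 8.29 in bone, against 6.83, 6.84, 7.04 and 7.05 in fat, 3 groups without overlap. Its log2 difference was 2.70 (SE 0.20, adjusted p = 2.9e-11) between heart and bone and 3.93 (SE 0.20, adjusted p = 4.6e-14) between heart and fat. Ndufb9 differed by 3.70 (SE 0.21, adjusted p = 3.2e-13) between heart and fat, and Ndufb7 by 2.49 (SE 0.25, adjusted p = 4.5e-09) between heart and bone. The probe annotated to Ndufs5-ps, a pseudogene of the accessory subunit Ndufs5, differed by 2.45 (SE 0.082, adjusted p = 3.1e-17) between heart and bone, and how far it reads the parent gene's transcripts was not tested. Between bone and fat the members of this complex split, with 12 higher and 13 lower in bone and a median of -0.013. Ndufb3, another membrane-arm subunit, averaged 12.69 ± 0.079 in heart, 10.92 ± 0.10 in bone and 12.18 ± 0.084 in fat. Its bone minus fat difference was -1.26 (SE 0.075, adjusted p = 7e-13), while that of Ndufb2 was 1.24 (SE 0.20, adjusted p = 8.5e-06). Ndufs5-ps at -0.94 and Ndufa7 at -0.88 were also lower in bone than in fat.

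Complex II feeds in electrons from succinate and also works in the citric acid cycle. All 3 measured genes were higher in heart than in bone (median 1.43) and than in fat (median 2.04). Sdhc, a membrane anchor and the brightest probe of the complex in heart, averaged 13.36 ± 0.12 in heart, 12.10 ± 0.051 in bone and 11.65 ± 0.19 in fat. Sdhb, the iron-sulfur subunit, had 12.78, 13.02, 13.00 and 11.22 in heart, with array 4 low, against 10.39 to 10.52 in bone and 10.37 to 10.57 in fat, where bone and fat overlapped.

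Complex III passes electrons from ubiquinol to cytochrome c, and all 8 measured genes were higher in heart than in bone (median 1.23) and than in fat (median 1.27). Uqcrc1, a core protein, averaged 14.01 ± 0.10 in heart, 11.96 ± 0.16 in bone and 11.87 ± 0.18 in fat. Uqcr10, a small accessory subunit and the brightest probe of the complex in heart, averaged 14.45 ± 0.11 in heart, 13.75 ± 0.079 in bone and 13.63 ± 0.082 in fat. For both, heart exceeded the other tissues by far more than the spread between arrays.

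In complex V, 12 of 15 genes were higher in heart than in bone (median 1.07) and 12 were higher in heart than in fat (median 1.27). Atp5a1, the alpha subunit of the F1 head, averaged 11.99 ± 0.24 in heart, 10.02 ± 0.21 in bone and 9.44 ± 0.20 in fat. Atp5b, the catalytic beta subunit, averaged 14.70 ± 0.020 in heart, 14.47 ± 0.025 in bone and 14.60 ± 0.052 in fat, differences of 0.23 (SE 0.033, adjusted p = 1.8e-06) and 0.10 (SE 0.033, adjusted p = 0.00804). Such levels lie close to 14.91, the top of the scale. Mean levels over 14 were reached by 23 members in wild-type heart, 2 in bone and 2 in fat, and how much the top of the scale shortens their differences was not tested.

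Heart wild-type array 4 touched most of the members that missed the threshold. On it, 11 members lay over 1 log2 unit below and 4 over 1 above the mean of wild-type hearts 1 to 3. Atp5pb, the b subunit of the outer stalk of the ATP synthase, had 12.43, 12.55, 12.43 and 6.74 on the 4 wild-type hearts, and Ndufc2, a complex I accessory subunit, had 12.72, 12.73, 12.66 and 7.43. Array 4 held the low value in both. Without it, 80 of 81 members passed between heart and bone and 79 between heart and fat. Array 4 was over 1 log2 unit off for 23.4% of all genes, so this gain need not be particular to the members. The share of all genes passing in that fit is not given here. Cox7a2l, a factor that joins complexes III and IV, differed by -0.42 between heart and bone and -0.24 between heart and fat with array 4, and by 0.73 (SE 0.090, adjusted p = 9.5e-08) and 0.92 (SE 0.090, adjusted p = 2.7e-09) without it. Probes of a gene disagreed there too: between heterozygous and wild-type hearts the brighter Ndufa8 probe differed by 0.0065 and the other by 1.35, and the Atp5j probes by 0.056 and 1.58.

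Complex IV, cytochrome c oxidase, hands the electrons to oxygen, and it held the members called lower in wild-type heart. Of its 17 measured genes, 14 were higher and 2 lower in heart than in bone (median 0.99), and 13 were higher and 2 lower in heart than in fat (median 1.05). Cox5a, which has no tissue form, followed the other complexes with 14.20 ± 0.030 in heart, 13.13 ± 0.035 in bone and 12.21 ± 0.020 in fat. The 4 calls lower in heart all fell on isoform genes, Cox6b2 and Cox6a1 against bone and Cox6a1 and Cox8a against fat. Outside complex IV, the complex I assembly factor Ndufaf7 did not pass between heart and fat. Without heart wild-type array 4 its difference was 0.085 (SE 0.12, limma adjusted p = 0.518).

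**Figure D2:**
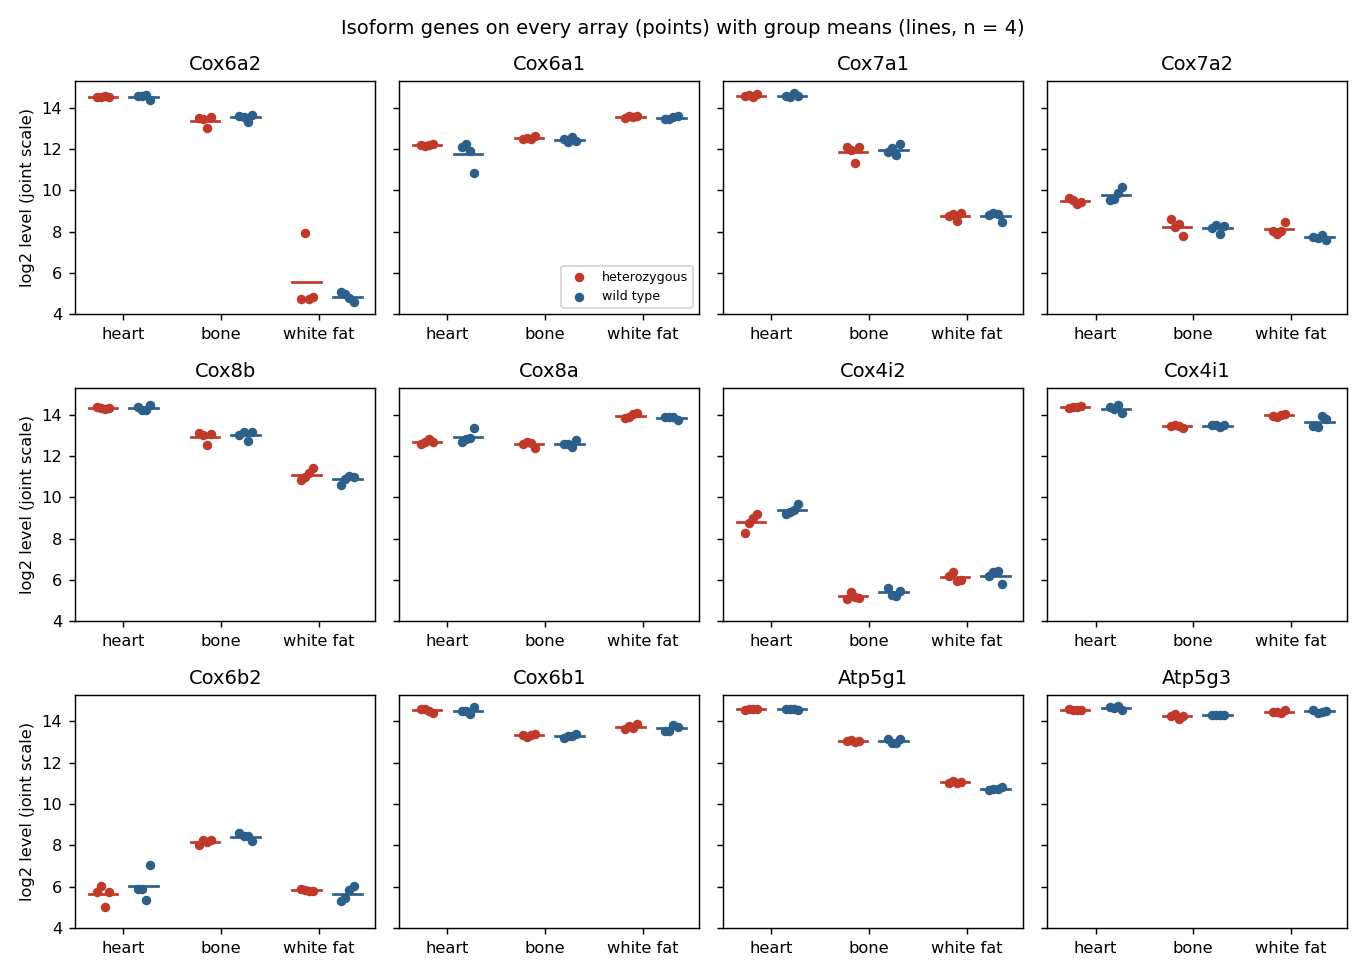
Log2 levels on the joint scale of isoform genes on every array, by tissue, with heterozygous arrays in red, wild-type arrays in blue and lines at the group means (n = 4). Cox6a2, Cox7a1, Cox8b and Atp5g1 are highest in heart and lowest in fat, Cox6a1 and Cox8a are highest in fat, and Cox6a2 on heterozygous fat array 2 stands apart at 7.92.

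Subunits 6a, 7a and 8 each pair a heart and muscle form with a liver form, named for the tissue of the protein. The gene starts of 5 of these forms are shown because the isoform results rest on these genes; Cox6a2 has no entry in the table used. They are RefSeq promoter windows of GRCm38.p6, 300 bases long and mostly before the start, written 5′ to 3′ on the gene's strand. Capitals mark matches on either strand to GCGCATGC (the NRF1 core), CCGGAAG (ETS factors), AANATGGC (YY1), GGGCGG (the GC box), AAGGTCA (bound by estrogen-related receptors), TATAAA (the TATA box), CAGCTG (an E-box) or the MEF2 site.
Cox8b (chr7:140900397-140900696, minus strand): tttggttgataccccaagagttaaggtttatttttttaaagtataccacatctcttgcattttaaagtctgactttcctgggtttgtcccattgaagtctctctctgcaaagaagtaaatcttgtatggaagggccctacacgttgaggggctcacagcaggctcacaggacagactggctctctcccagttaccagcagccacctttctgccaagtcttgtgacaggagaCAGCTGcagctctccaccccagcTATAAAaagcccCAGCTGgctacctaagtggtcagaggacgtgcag
Cox8a (chr19:7217567-7217866, minus strand): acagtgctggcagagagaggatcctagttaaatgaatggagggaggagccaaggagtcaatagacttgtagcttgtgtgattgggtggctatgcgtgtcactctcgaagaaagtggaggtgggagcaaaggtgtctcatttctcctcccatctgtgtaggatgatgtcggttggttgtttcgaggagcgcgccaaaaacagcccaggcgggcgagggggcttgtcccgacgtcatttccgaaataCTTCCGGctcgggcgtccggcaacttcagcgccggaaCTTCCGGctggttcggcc
Cox7a1 (chr7:30183921-30184220, plus strand): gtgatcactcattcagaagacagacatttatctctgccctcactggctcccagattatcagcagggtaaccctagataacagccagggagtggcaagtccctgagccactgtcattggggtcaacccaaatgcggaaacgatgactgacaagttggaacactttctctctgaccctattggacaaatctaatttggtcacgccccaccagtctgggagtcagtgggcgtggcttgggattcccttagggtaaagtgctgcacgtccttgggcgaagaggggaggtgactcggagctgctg
Cox7a2 (chr9:79759804-79760103, minus strand): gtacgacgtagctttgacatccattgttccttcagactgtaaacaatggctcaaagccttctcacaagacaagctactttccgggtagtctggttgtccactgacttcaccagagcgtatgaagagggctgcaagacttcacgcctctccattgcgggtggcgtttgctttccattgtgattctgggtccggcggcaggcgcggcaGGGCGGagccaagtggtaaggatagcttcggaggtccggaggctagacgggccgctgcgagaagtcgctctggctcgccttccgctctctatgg
Cox6a1 (chr5:115348909-115349208, minus strand): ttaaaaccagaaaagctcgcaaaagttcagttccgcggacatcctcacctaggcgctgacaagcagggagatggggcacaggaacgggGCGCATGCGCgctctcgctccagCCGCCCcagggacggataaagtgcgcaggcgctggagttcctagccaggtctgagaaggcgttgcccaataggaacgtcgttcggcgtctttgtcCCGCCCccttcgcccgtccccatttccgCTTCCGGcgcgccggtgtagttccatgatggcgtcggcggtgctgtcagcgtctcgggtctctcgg
The Cox8b window held 1 TATAAA and 2 CAGCTG matches, and the Cox8a window held 2 CCGGAAG matches. The Cox7a1 window held none of these patterns and the Cox7a2 window held 1 GGGCGG match. The Cox6a1 window held 2 overlapping GCGCATGC matches on opposite strands, 1 CCGGAAG match and 2 GGGCGG matches.

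Windows were found for 72 of the 87 members, 77 windows in all, and the same letters were counted in 21262 windows of protein-coding genes and in all 32851 windows. GCGCATGC stood in 14.3% of member windows, 3.51% of coding windows and 2.71% of all windows. AANATGGC stood in 24.7% of member windows, 6.37% of coding windows and 6.05% of all windows, CCGGAAG in 22.1% of member windows, 11.6% of coding windows and 8.86% of all windows, and AAGGTCA in 9.09% of member windows, 4.08% of coding windows and 4.72% of all windows. Each of these 4 patterns was thus more frequent in member windows than in coding windows, as a description with no test. GGGCGG stood in 45.5% of member windows, 46.2% of coding windows and 35.7% of all windows. TATAAA stood in 10.4% of member windows, 12.6% of coding windows and 13.6% of all windows, CAGCTG in 6.49% of member windows, 15.6% of coding windows and 16.3% of all windows, and the MEF2 site in 0% of member windows, 1.66% of coding windows and 1.86% of all windows. The median GC content was 57.3% in member windows and 56.3% in coding windows. These are matches of letters, not sites shown to be bound.

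Cox6a2, the heart and muscle form of subunit 6a, had 14.59, 14.58, 14.62 and 14.40 in wild-type heart, 13.62, 13.58, 13.34 and 13.68 in bone, against 5.08, 4.99, 4.77 and 4.57 in fat. The 3 groups did not overlap. Heart differed from bone by 0.99 (SE 0.43, adjusted p = 0.0408) and from fat by 9.69 (SE 0.43, adjusted p = 4.2e-15), where 2 of 4 wild-type fat arrays detected the probe and the lowest level on the scale is 4.28. Without heterozygous fat array 2, which enters the shared spread, the difference from bone was 1.00 (SE 0.11, adjusted p = 4.3e-08). The difference from bone passed the threshold in 9 of 17 alternatives and missed it in the others, with no filter or without single arrays, with adjusted p up to 0.0878. The liver form Cox6a1 ran the other way, with 12.09, 12.24, 11.93 and 10.83 in heart, 12.50, 12.34, 12.61 and 12.38 in bone, against 13.44, 13.48, 13.55 and 13.62 in fat. Its heart minus bone difference was -0.69 (SE 0.18, adjusted p = 0.00152), or -0.37 without heart array 4, and its heart minus fat difference was -1.75 (SE 0.18, adjusted p = 1e-08). In heterozygotes the heart and bone difference was -0.33 and missed the threshold (adjusted p = 0.0957).

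Cox7a1, the heart and muscle form of subunit 7a and the brightest complex IV probe in heart, had 14.56, 14.52, 14.71 and 14.57 in heart, 11.86, 12.05, 11.72 and 12.24 in bone, against 8.81, 8.89, 8.88 and 8.46 in fat. The groups did not overlap, and heart differed from bone by 2.62 (SE 0.14, adjusted p = 1.1e-13) and from fat by 5.83 (SE 0.14, adjusted p = 7.5e-20). The liver form Cox7a2 did not mirror it. Cox7a2 had 9.52, 9.59, 9.87 and 10.17 in heart, 8.19, 8.31, 7.91 and 8.27 in bone, against 7.76, 7.69, 7.86 and 7.60 in fat, also highest in heart, by 1.62 (SE 0.16, adjusted p = 6.4e-09) over bone and 2.06 (SE 0.16, adjusted p = 1.5e-10) over fat.

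Subunit 8 was like subunit 6a in that fat was lowest in the muscle form and highest in the liver form. Between heart and bone the 6a and 8 liver forms differed in opposite directions. Cox8b, the heart, muscle and brown fat form, had 14.36, 14.24, 14.22 and 14.44 in heart, 13.00, 13.15, 12.75 and 13.15 in bone, against 10.61, 10.88, 11.05 and 10.98 in fat. Its differences were 1.31 (SE 0.13, adjusted p = 3.2e-09) between heart and bone and 3.44 (SE 0.13, adjusted p = 1.4e-16) between heart and fat, and no groups overlapped. Cox8a, the liver form, had 12.66, 12.82, 12.87 and 13.35 in heart, 12.57, 12.57, 12.43 and 12.78 in bone, against 13.87, 13.87, 13.88 and 13.76 in fat. Fat lay above both other tissues, with a heart minus fat difference of -0.92 (SE 0.11, adjusted p = 9.6e-08), while heart and bone overlapped at 0.34 (SE 0.11, adjusted p = 0.0069), or 0.13 in heterozygotes (adjusted p = 0.301). Ucp1, the uncoupling protein of brown fat, had 5.17 to 5.90 in heterozygous and 5.28 to 5.82 in wild-type fat.

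Cox4i2, a subunit 4 form known from lung, had 9.21, 9.31, 9.38 and 9.66 in heart, 5.61, 5.27, 5.22 and 5.48 in bone, against 6.18, 6.37, 6.42 and 5.78 in fat. Its 3.99 (SE 0.18, adjusted p = 5.4e-15) between heart and bone became 2.31 without background correction, and the common form Cox4i1 differed by 0.82 (SE 0.089, adjusted p = 2.2e-08). Cox6b2, the testis form of subunit 6b, had 5.91, 5.86, 5.35 and 7.04 in heart, 8.60, 8.45, 8.45 and 8.20 in bone, against 5.32, 5.43, 5.86 and 6.04 in fat. Bone stood above both other tissues without overlap, with a heart minus bone difference of -2.38 (SE 0.25, adjusted p = 1.7e-08) and a bone minus fat difference of 2.76 (SE 0.25, adjusted p = 1.8e-09). Heart and fat overlapped, with a difference of 0.38 (SE 0.25, adjusted p = 0.189) that missed the threshold and whose sign turned under median scaling and in heterozygotes. The common form Cox6b1 differed by 1.23 (SE 0.073, adjusted p = 6.2e-13) between heart and bone.

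The common forms of subunits 4 and 6b were highest in heart. Cox4i1 had 14.35, 14.26, 14.45 and 14.09 in heart, 13.48, 13.49, 13.39 and 13.52 in bone, against 13.45, 13.39, 13.92 and 13.77 in fat. Cox6b1 had 14.52, 14.49, 14.36 and 14.69 in heart, 13.22, 13.28, 13.30 and 13.37 in bone, against 13.54, 13.55, 13.81 and 13.74 in fat. In both genes bone was lower than heart on every array. Cox7b, a subunit with a testis form that was not detected here, had 8.55, 8.44, 8.83 and 9.36 in heart, 6.59, 7.10, 7.13 and 7.16 in bone, against 5.91, 5.65, 6.23 and 5.60 in fat, with heart over bone by 1.80 (SE 0.25, adjusted p = 8.5e-07) and over fat by 2.95 (SE 0.25, adjusted p = 4.1e-10). Ndufa4, named for complex I and now placed in complex IV, had 14.55, 14.41, 14.51 and 14.48 in heart, 13.43, 13.61, 13.48 and 13.60 in bone, against 13.49, 13.54, 13.61 and 13.65 in fat. Its heart minus bone difference was 0.95 (SE 0.053, adjusted p = 2.5e-13). Cox7a2l had 11.52, 11.64, 11.58 and 6.94 in heart, 10.83, 10.62, 11.10 and 10.82 in bone, against 10.71, 10.61, 10.61 and 10.70 in fat, with heart array 4 alone below the other tissues.

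The rotating ring of the ATP synthase is built from subunit c, whose mature protein is the same from Atp5g1, Atp5g2 and Atp5g3. Atp5g1 had 14.61, 14.60, 14.59 and 14.53 in heart, 13.16, 12.95, 12.94 and 13.14 in bone, against 10.68, 10.72, 10.73 and 10.84 in fat. No groups overlapped, and heart differed from bone by 1.54 (SE 0.054, adjusted p = 6.5e-17) and from fat by 3.84 (SE 0.054, adjusted p = 6.3e-24). Atp5g3 stayed in a narrow range, with 14.69, 14.66, 14.76 and 14.58 in heart, 14.31, 14.33, 14.30 and 14.33 in bone, against 14.56, 14.43, 14.47 and 14.48 in fat. These levels, like those of Atp5g1 in heart, lie close to 14.91, the top of the scale. How much the top narrows the range of Atp5g3 was not tested. The sign of the bone minus fat difference of Atp5g3 turned under other normalizations. Atp5g2 had 11.55, 11.77, 11.58 and 8.86 in heart, with array 4 low, 9.63, 9.87, 9.78 and 9.77 in bone, against 9.12, 9.20, 9.31 and 9.38 in fat.

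The muscle forms in bone stood beside muscle RNA. The summed intensity of the 12 measured skeletal muscle markers was 156087 to 177819 on heterozygous and 162216 to 181377 on wild-type bone arrays, 1545 to 9587 on heterozygous and 1652 to 2548 on wild-type fat arrays, and 18321 to 19678 on heterozygous and 18967 to 21747 on wild-type hearts. Heterozygous bone array 3 had the lowest Ckm of the bone arrays (12.82), and also the lowest Cox6a2 (13.04), Cox7a1 (11.34) and Cox8b (12.55). The low levels there were not limited to muscle forms, as Cox5a, which has no tissue form, was lowest there too (12.86). The median distance of all members on this array from its own group was -0.17, beside 0.0023 for all genes. The part of muscle RNA in the bone levels of these genes was not tested.

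**Figure D3:**
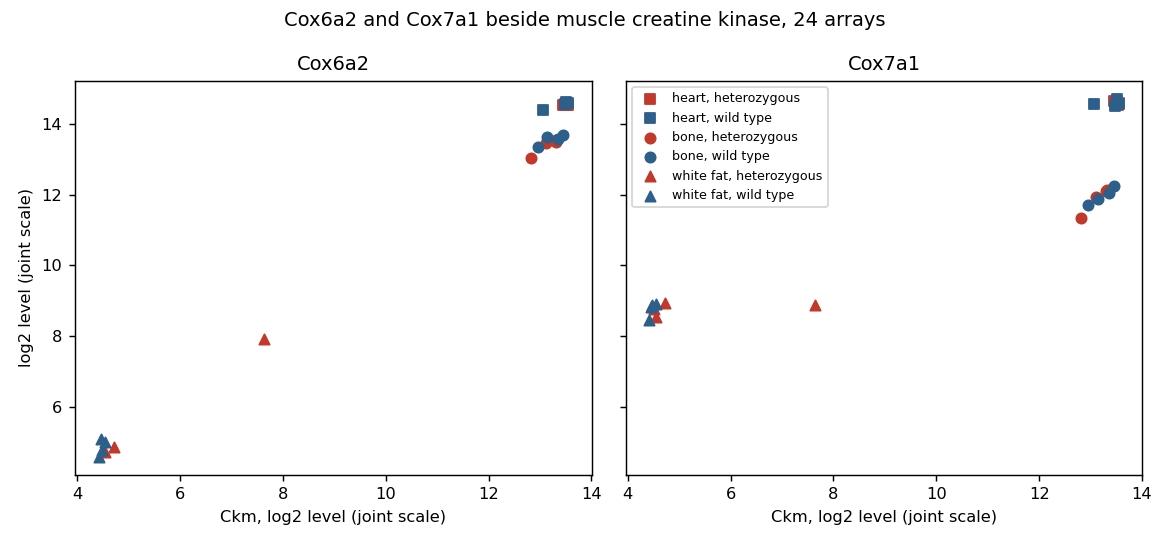
Log2 levels on the joint scale of Cox6a2 and Cox7a1 against muscle creatine kinase Ckm on all 24 arrays, by tissue. Heterozygous fat array 2 lies apart from the other fat arrays in Ckm (7.64) and in Cox6a2 (7.92), with Cox7a1 at 8.87.

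Neighbouring pathways were read from lists of their genes. Of 11 citric acid cycle genes, 10 were higher in heart than in bone (median 1.96), and 10 were higher and 1 lower in heart than in fat (median 1.58). Of 12 fatty acid oxidation genes, 10 were higher in heart than in bone (median 2.40), and 10 were higher and 1 lower in heart than in fat (median 1.61). Ogdh, part of the oxoglutarate dehydrogenase of the cycle, differed by 3.24 (SE 0.13, adjusted p = 5.1e-16) between heart and bone, and Cpt1b, the muscle form of the enzyme that admits fatty acids to mitochondria, by 6.72 (SE 0.15, adjusted p = 1.2e-20) between heart and fat. Between bone and fat, 1 cycle gene was higher and 6 lower in bone (median -0.34), as were 1 and 9 of the oxidation genes (median -0.75), where the chain's median was 0.053. Glycolysis had 8 of 14 genes higher and 2 lower in heart than in bone (median 0.23), and assembly factors of complex IV had 14 of 17 higher and 1 lower (median 0.82). The list for assembly of complexes I, II, III and V was not higher in heart than in bone by its summed intensity. Its sums were 19470 to 24812 in wild-type heart and 22205 to 23775 in wild-type bone, with overlap. Esrra, a receptor that drives mitochondrial genes, differed by 2.20 (SE 0.098, adjusted p = 4.6e-15) between heart and bone. It is 1 of 11 measured mitochondrial gene regulators, whose sums were 6898 to 8460 in wild-type heart and 4033 to 4524 in wild-type bone.

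Heterozygous and wild-type arrays were then compared within each tissue, normalized per tissue, to ask whether the chain differs with the Ednra allele. No member passed an adjusted p of 0.05 in any tissue by limma. In heart 0 of 81 passed, beside 0% of 8535 genes, in bone 0 of 81, beside 0.074% of 9460 genes, and in fat 0 of 80, beside 0.0108% of 9292 genes. An unadjusted p under 0.05 was held by 2 members in heart, 8 in bone and 31 in fat, beside 5.53%, 18.5% and 29.6% of all genes.

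**Figure D4:**
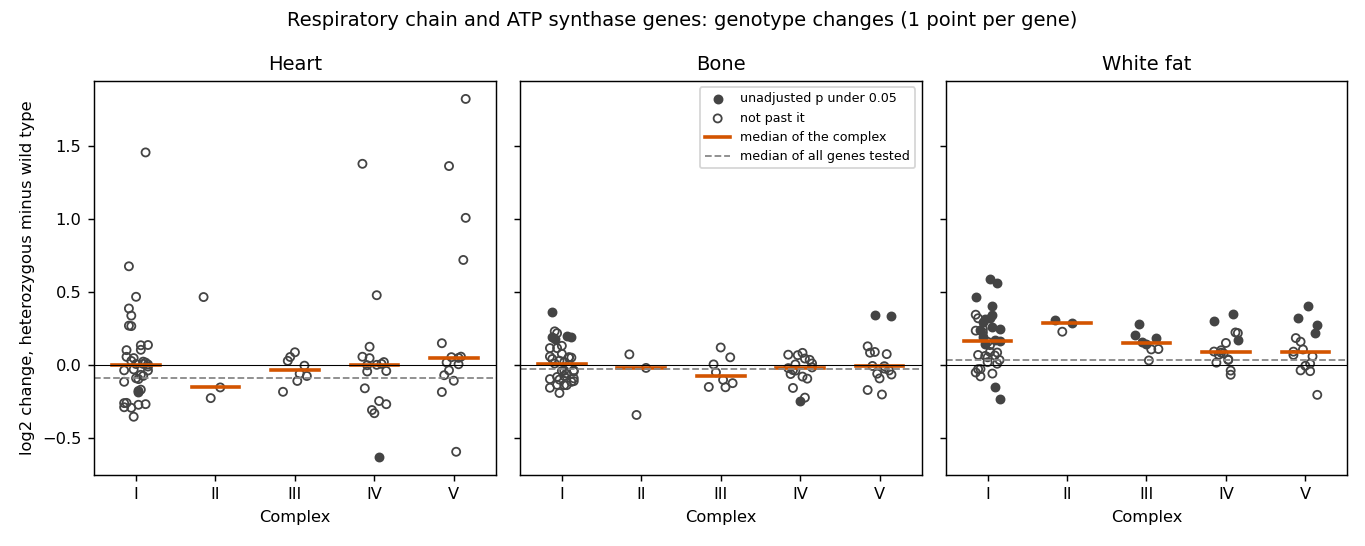
Each point is the log2 change of 1 gene, heterozygous minus wild-type (n = 4 arrays each), by complex and tissue. In fat all 5 complex medians lie above 0, between 0.087 and 0.28, and in bone they lie between -0.077 and 0.0045.

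In white fat most members lay on the same side. There 67 of 80 had a log2 change above 0, beside 54.9% of all genes, and the median was 0.14, beside 0.030 for all genes. The members share the same 8 arrays, so these are not independent results. Their median deviation from the mean of each gene was -0.099, -0.14, 0.0044 and -0.0083 on wild-type arrays 1 to 4. On heterozygous arrays 1 to 4 it was 0.0075, 0.034, 0.096 and 0.13. Wild-type arrays 3 and 4 thus lay near heterozygous array 1, and wild-type arrays 1 and 2 lay lowest. Of the members with an unadjusted p under 0.05, 29 were above 0 and 2 below, where 15.6% of all genes were above. All heterozygous arrays lay above all wild-type arrays for 16 members, beside 8.94% of all genes, and below them for 2, beside 16.6% in either direction. At the looser adjusted p of 0.10, 18 members were above 0 and 1 below, where 15.8% of all genes passed in either direction. Changes above 0 were held by 31 of 38 genes of complex I (median 0.16), 3 of 3 of complex II (0.28), 8 of 8 of complex III (0.15), 14 of 16 of complex IV (0.087) and 11 of 15 of complex V (0.090).

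Levels in this and the next paragraphs are on the scale of each tissue's own 8 arrays. Atp5g1, the subunit c gene described above, had 11.47, 11.60, 11.49 and 11.54 in heterozygous fat, against 11.13, 11.18, 11.19 and 11.30 in wild-type fat. The groups did not overlap, and the change was 0.32 (SE 0.059, adjusted p = 0.0598). Ndufv3, an accessory subunit of the NADH-oxidising arm of complex I, had 13.37, 13.44, 13.41 and 13.42 in heterozygous and 12.99, 12.99, 13.25 and 13.11 in wild-type fat, a change of 0.32 (SE 0.065, adjusted p = 0.0598), and its other probes gave 0.35 and 0.30. Sdhb had 11.24, 11.17, 11.31 and 11.23 in heterozygous and 10.83, 10.94, 10.92 and 11.02 in wild-type fat, a change of 0.31 (SE 0.062, adjusted p = 0.0598), with 0.19 and 0.29 from its other probes. Atp5d, a central stalk subunit of the ATP synthase, had 11.90, 11.87, 11.93 and 11.94 in heterozygous and 11.54, 11.60, 11.74 and 11.66 in wild-type fat, a change of 0.27 (SE 0.057, adjusted p = 0.0602). None of these genes overlapped between the groups, and none passed.

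Iron-sulfur core subunits of complex I were near these. Ndufs8 had 11.35, 11.56, 11.47 and 11.57 in heterozygous and 10.98, 11.20, 11.18 and 11.22 in wild-type fat, a change of 0.34 (SE 0.076, adjusted p = 0.0672). Ndufs7 had 12.63, 12.45, 12.62 and 12.60 in heterozygous and 11.85, 11.95, 12.35 and 12.31 in wild-type fat, a change of 0.46 (SE 0.11, adjusted p = 0.0683). In Ndufs7, wild-type arrays 3 and 4 lay nearer to the heterozygotes than arrays 1 and 2. All 5 measured core subunits of the complex had changes above 0, with a median of 0.29. Below 0, Ndufaf4, a complex I assembly factor, had 9.99, 9.98, 9.88 and 9.97 in heterozygous and 10.26, 10.24, 10.21 and 10.05 in wild-type fat, a change of -0.23 (SE 0.068, adjusted p = 0.0768). Ndufb3 had 12.43, 12.36, 12.38 and 12.43 in heterozygous and 12.64, 12.54, 12.58 and 12.46 in wild-type fat, a change of -0.15 (SE 0.055, adjusted p = 0.107). Atp5pb at -0.21, Ndufaf7 at -0.079 and Ndufa1 at -0.052 came next, and their groups overlapped.

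**Figure D5:**
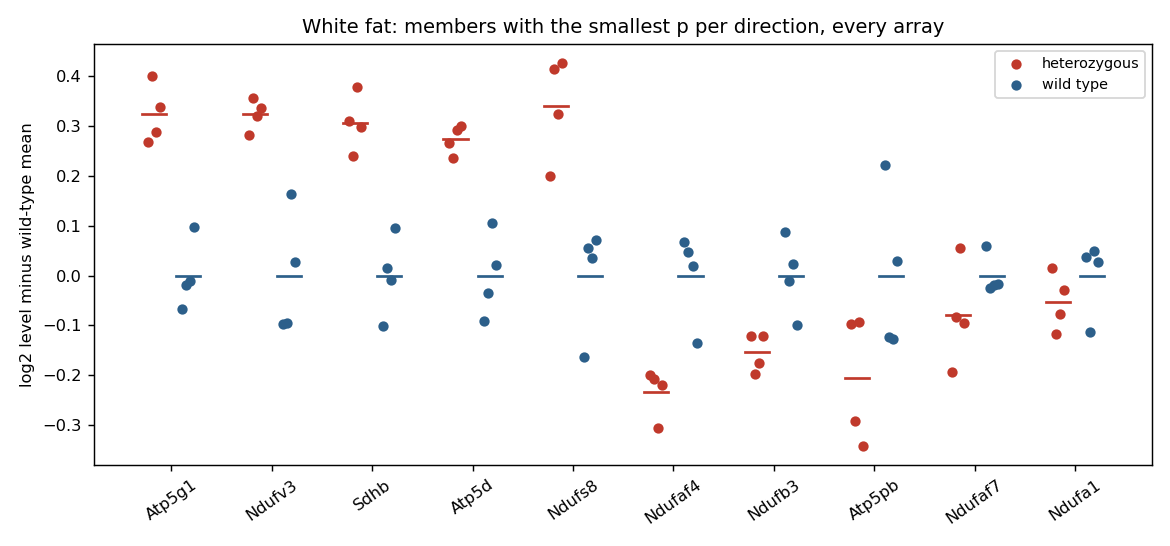
Log2 levels in white fat minus the wild-type mean of each gene, for the members above and below 0 with the smallest p, with heterozygous arrays in red, wild-type arrays in blue and lines at the group means (n = 4). The groups are apart for Atp5g1, Ndufv3, Sdhb, Atp5d, Ndufs8, Ndufaf4 and Ndufb3.

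Other values differed between the same fat arrays. The mean raw signal was 553 to 666 on heterozygous and 702 to 820 on wild-type arrays, without overlap. With this signal as a covariate the median change of the members was 0.035, beside 0.0023 for all genes. In that fit 50 members were above 0 and 30 below. As the signal differs with genotype on every array, the fit cannot separate signal from genotype. Macrophage markers had changes below 0 in 9 of 9 measured genes (median -0.57), with summed intensities of 10548 to 14150 on heterozygous and 15398 to 31371 on wild-type arrays. Changes above 0 were held by 7 of 9 adipocyte markers (median 0.16), 3 of 4 brown adipocyte markers (0.38) and 4 of 4 erythroid markers (0.38). The summed brown adipocyte intensities were 763 to 924 on heterozygous and 512 to 700 on wild-type arrays, without overlap. Its list includes Cpt1b and is not particular to brown fat. On hearts the sum was 7958 to 8924 in heterozygotes and 6413 to 9629 in wild types. Ucp1, a member of that list, overlapped between heterozygous and wild-type fat. The erythroid sums were 27672 to 32739 on heterozygous and 24424 to 28198 on wild-type arrays, with overlap. Heterozygous array 2 stood apart in the muscle and neutrophil lists. The skeletal muscle sums were 1545, 9587, 2007 and 2506 on heterozygous and 1652, 1989, 2548 and 1696 on wild-type arrays (7 of 7 changes above 0, median 1.44). The neutrophil sums were 3121, 19534, 3391 and 4331 on heterozygous and 2210, 3408, 3106 and 4575 on wild-type arrays (5 of 5, median 0.71). The part of the raw signal and of these cell types in the members' values was not tested.

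Neighbouring pathways in fat had no gene past the threshold either. Changes above 0 were held by 10 of 11 citric acid cycle genes (median 0.13), 8 of 12 fatty acid oxidation genes (0.18), 5 of 7 electron carriers and feeder enzymes (0.23) and 8 of 16 complex IV assembly factors (-1.6e-04). Mdh2, the mitochondrial malate dehydrogenase, had a change of 0.46 (SE 0.10, adjusted p = 0.0672). Etfb, which carries electrons from fatty acid oxidation, had 0.34 (SE 0.050, limma adjusted p = 0.0546), and Ppargc1b, a coactivator of mitochondrial genes, had 1.06 (SE 0.24, adjusted p = 0.0672). Ppargc1b had the largest change of 10 measured mitochondrial gene regulators, of which 8 were above 0 (median 0.078, lowest -0.53). Assembly factors of complexes I, II, III and V had 9 of 14 above 0 (0.037). Adenine nucleotide carriers and porins had 3 of 6 (0.062).

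The count of calls in fat moved with single arrays and with the settings of the fit. With array weights 18 members passed, beside 1653 of all genes, with the replicate number as a block 16, beside 1306, and with the strict detection filter 4, beside 162. Fat wild-type arrays 3 and 4 correlated more with the heterozygous than with their own group (0.995 against 0.993, and 0.994 against 0.991). The mouse number of wild-type array 3 also stands under heterozygous fat array 4, so the genotype of that pair is uncertain. Without wild-type array 3 and heterozygous array 4, no member and no gene passed. Without wild-type array 3 alone, 14 members passed, all above 0, beside 9.27% of all genes. Without wild-type array 4 alone, 14 passed, 13 above and 1 below 0, beside 12.6%. Without heterozygous array 2, 66 of 80 members were above 0 and none passed.

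Bone showed no common shift, with 37 of 81 members above 0, beside 43.8% of all genes, and a median of -0.021, beside -0.027. Ndufs4, an accessory subunit of the input arm of complex I, had 12.07, 12.07, 11.86 and 12.20 in heterozygous and 11.37, 11.71, 11.83 and 11.85 in wild-type bone, a change of 0.36 (SE 0.11, adjusted p = 0.106). Its other probes gave 0.085, 0.041 and 0.042, so the probes disagreed. Atp5o, which ties the outer stalk of the ATP synthase to its head, had 8.59, 8.68, 8.62 and 8.73 in heterozygous and 8.35, 8.29, 8.55 and 8.05 in wild-type bone, a change of 0.34 (SE 0.11, adjusted p = 0.123). Atp5pb, of the same stalk, had 11.53, 11.69, 11.50 and 11.75 in heterozygous and 11.28, 11.15, 11.55 and 11.15 in wild-type bone, a change of 0.33 (SE 0.096, adjusted p = 0.101). Ndufs4 and Atp5o were the members without overlap, 2 of 81 and both above 0, beside 9.87% of all genes, 4.31% above 0. At an unadjusted p under 0.05, 7 members were above 0, where 8.07% of all genes were, and at an adjusted p of 0.10 no member passed, beside 3.55%. Next above 0 came the accessory subunits Ndufc2 at 0.19 and Ndufa7 at 0.19. Below 0 the smallest p-values were those of Cox6b2 at -0.25 (SE 0.10, adjusted p = 0.213) and Uqcc2, a complex III assembly factor, at -0.15 (SE 0.073, adjusted p = 0.283), then Sdhd at -0.34, Ndufa13 at -0.11 and Cox4i2 at -0.22.

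Wild-type bone array 3 correlated more with the heterozygous than with its own group (0.996 against 0.994). Its mouse number also stands under heterozygous bone array 4, so the genotype of these arrays is uncertain, and without both of them 2 members passed, beside 737 of all genes. Without wild-type array 3 alone, Atp5pb, Atp5o and Ndufs4 passed, beside 8.57% of all genes. Macrophage markers in bone had changes above 0 in 8 of 9 genes (median 0.50) and erythroid markers below 0 in 7 of 8 (-0.28), and their part in the members' values was not tested.

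In heart, 41 of 81 members were above 0 and 40 below, beside 35.9% of all genes above, and the median was 0.00, beside -0.091. Cox4i2 had 7.54, 8.11, 8.38 and 8.56 in heterozygous and 8.58, 8.69, 8.77 and 9.07 in wild-type heart, a change of -0.63 (SE 0.23, adjusted p = 0.608). Ndufa2, a complex I accessory subunit, had 13.48, 13.57, 13.59 and 13.56 in heterozygous and 13.65, 13.73, 13.71 and 13.86 in wild-type heart, a change of -0.19 (SE 0.059, adjusted p = 0.608). These were the members without overlap, 2 of 81 and both below 0, beside 8.03% of all genes, 2.8% above 0. No member above 0 had an unadjusted p under 0.05, beside 1.71% of all genes. Next below 0 came Uqcc1 at -0.18, Ndufb10 at -0.27 and Cox6c at -0.16. Above 0 the smallest p-values were those of the accessory subunit Ndufa12 at 0.27 (SE 0.14, adjusted p = 0.608) and of Cox7c, a complex IV subunit, at 0.12 (SE 0.070, adjusted p = 0.608), then Ndufa3 at 0.39, Cox6a1 at 0.48 and Atp5d at 1.01. The mean change of Atp5pb was 1.82 (SE 1.29, adjusted p = 0.608), with 12.54, 12.37, 12.38 and 12.16 in heterozygous and 12.05, 12.18, 12.05 and 5.87 in wild-type heart, where array 4 alone was low.

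Whether the change with genotype differed between tissues was tested over 7659 genes detected in all 3. Between fat and bone 3 of 80 members passed, all with a larger change in fat, beside 2.19% of all genes, 1.25% in that direction. Atp5g1 gave 0.31 in fat and -0.0031 in bone (difference 0.32, SE 0.074, adjusted p = 0.0344). Ndufs6 gave 0.34 in fat and -0.10 in bone (difference 0.44, SE 0.10, adjusted p = 0.0338), and Ndufs7 gave 0.50 and -0.10 (difference 0.60, SE 0.16, adjusted p = 0.0483). Bone and fat came from shared animals. With the animal as a replicate block in limma, in a fit without the heart arrays, none passed (adjusted p = 0.0672 for Atp5g1, 0.0619 for Ndufs6 and 0.0662 for Ndufs7). Of all genes, 170 passed in that fit and 168 in the main fit. The doubled mouse number counted there as a separate animal in each genotype.

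Between fat and heart 4 members passed, all with a larger change in fat, beside 5.88% of all genes, 4.37% in that direction. Ndufv3 gave 0.36 in fat and -0.11 in heart (difference 0.48, SE 0.11, adjusted p = 0.0314), and Ndufs7 gave 0.50 and -0.12 (difference 0.62, SE 0.16, adjusted p = 0.0335). Atp5g1 gave 0.31 in fat and 0.016 in heart (difference 0.30, SE 0.074, adjusted p = 0.0336), and Ndufa2 gave 0.15 and -0.22 (difference 0.37, SE 0.095, adjusted p = 0.0364). Between heart and bone none passed, beside 0.0261% of all genes. Leaving out single arrays gave 0 to 10 members between fat and bone and 0 to 10 between fat and heart, with 10 in each without fat wild-type array 3, whose genotype is uncertain. Without that array 411 and 714 of all genes passed in these comparisons. Between fat and bone none passed without bone wild-type array 1, 2 or 4, bone heterozygous array 2 or 3, fat wild-type array 1 or 2, or fat heterozygous array 2, 3 or 4. In these fits 0 to 61 of all genes passed, against 168 in the main fit. Between fat and heart none passed without heart heterozygous array 1 or 3, fat wild-type array 1 or 2, or fat heterozygous array 3 or 4. In those fits 2 to 59 of all genes passed, against 450 in the main fit. Scaling each array to its median gave 0 in both comparisons, where 15 of all genes passed between fat and bone and 371 between fat and heart. The comparisons share the fat arrays and are not independent of each other.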

How the data were processed

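RNA of 24 samples, purified with Trizol and RNeasy columns and amplified to biotin-labelled cRNA per the labels' protocols, was measured on Illumina mouse bead arrays read with GenomeStudio 2011.1, per the submitters' processing notes. The authors deposited a value table of intensities whose quartiles differ between arrays, taken here as raw, and a table, named as not normalized, of intensities with 27.4% below 0 and upper quartiles shared within a tissue, taken here as the authors' normalized values, with detection p-values beside them. The raw deposited intensity values were corrected with normexp through the deposited detection p-values (offset 16), quantile-normalized within a tissue for genotype and over all 24 arrays for tissues and interactions, and tested as log2 with limma 3.58.1 in R 4.3.3 (eBayes with trend, Benjamini-Hochberg over all genes, threshold 0.05). A probe was kept when its detection p was under 0.05 on at least 4 of 8 arrays of a tissue, and the brightest kept probe stood for its gene. Of 25697 probes, 23978 had 1 symbol and 1719 none. Members and lists were chosen with earlier results of these data known. Named were the isoform genes, the largest tissue differences, the brightest member per complex and the smallest genotype p-values in each direction. Nothing says that animals were processed apart, so p-values measure the spread between these samples, and 4 arrays per group limit the precision. Alternatives covered background, normalization, filter, array weights, raw signal, replicate block, heterozygous groups and leaving out single arrays. Same-numbered heterozygous and wild-type samples did not deviate together in all pairs (correlations -0.18 to 0.40), and the labels tie bone and fat to shared animals. The tests were tried on simulated data first.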

Additional observations from a re-analysis of the deposited data

Results flagged for a closer look

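Single arrays stood far from the rest of their group, by Dixon's test, in 24 of 234 groups of 4 arrays (39 named genes in 6 groups each, 10.3%), where chance flags about 1 in 20. Of these, 9 lay on heart wild-type array 4, all low: Atp5d at 9.63, Atp5g2 at 8.86, Atp5o at 4.40, Atp5pb at 6.74, Cox7a2l at 6.94, Ndufaf7 at 4.79, Ndufc2 at 7.43, Ndufs8 at 12.59 and Sdhb at 11.22. The other arrays gave 15 such values. In wild-type heart it was Cox6c on array 1 (low, 13.56). In heterozygous bone these were Cox4i1 on array 4 (low, 13.34), Cox6a2 on array 3 (low, 13.04), Cox8b on array 3 (low, 12.55) and Ndufs8 on array 3 (low, 11.56). In wild-type bone these were Cox7b on array 1 (low, 6.59) and Ndufv3 on array 4 (high, 12.32). In heterozygous fat these were Cox6a2 on array 2 (high, 7.92) and Ndufa2 on array 1 (low, 12.57). In wild-type fat these were Cox7c on array 2 (low, 12.72), Cox8a on array 4 (low, 13.76), Ndufa1 on array 2 (low, 12.71), Ndufaf7 on array 1 (high, 8.24), Ndufs8 on array 1 (low, 10.53) and Uqcc2 on array 3 (high, 11.22). 

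An interaction term in limma passed the threshold for 5 members, while no member passed for genotype within any tissue. These were 3 of 80 members between fat and bone, beside 2.19% of all genes, and 4 of 80 between fat and heart, beside 5.88%. Both counts went to 0 with median scaling, where 15 and 371 of all genes passed, and without some single arrays. Between fat and bone the differences were 0.32 for Atp5g1, 0.44 for Ndufs6 and 0.60 for Ndufs7, all lost with the animal as a block. Between fat and heart they were 0.30 for Atp5g1, 0.37 for Ndufa2, 0.62 for Ndufs7 and 0.48 for Ndufv3.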

How the results depend on the processing

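The median of all genes between heterozygous and wild-type hearts turned to 0.066 when arrays were scaled to the median, against -0.091, and the members' median was then -0.040. With the mean raw signal as a covariate the members' median in heart was -0.038, beside -0.17 for all genes. In bone, 2 members passed with array weights (of 541 genes passing) and 2 without both arrays that share a mouse number (of 737). In fat, 4 passed with the strict detection filter (of 162), 18 with array weights (of 1653) and 19 at an adjusted p of 0.10 (of 1464). The median in fat was 0.035 with the raw signal as a covariate, beside 0.0023 for all genes. In heart and fat the raw signal did not overlap between the genotypes, so this covariate cannot separate signal from genotype. With the replicate number as a replicate block, 16 members passed in fat (1306 genes in all) and 0 in heart and bone; the numbers only partly deviate together (fat correlations -0.055 to 0.40) and need not pair the samples. With the animal as a replicate block, 55 members passed between bone and fat (7907 genes in all). For the genotype effect in fat against bone 0 passed (170 genes in all). Other calls kept their side. The median difference between heart and bone was 1.22 without background correction, 1.43 with cyclic loess, 1.51 with median scaling and 1.24 with no filter, and between heart and fat 1.28, 1.45, 1.55 and 1.27, or 1.28 in heterozygotes. Bone against fat gave -0.033 in heterozygotes. The genotype effect in fat against bone had 1 member with cyclic loess (of 144 genes passing) and 0 with median scaling (of 15). In fat against heart it had 2 (of 314) and 0 (of 371), where the median was 0.099 with median scaling. Signs turned for Cox7a2l between heart and bone (0.77 in heterozygotes, 0.73 without heart wild-type array 4) and between heart and fat (0.95 and 0.92), with leave-one-out ranges of -0.83 to 0.73 and -0.64 to 0.92, for Cox6b2 between heart and fat (-0.24 with median scaling, -0.19 in heterozygotes) and for Atp5g3 between bone and fat (0.089 with cyclic loess, 0.20 with median scaling). Leaving out single arrays gave 0 to 3 members in bone and 0 to 14 in fat. It gave 0 to 10 for fat against bone and 0 to 10 for fat against heart. Beside the highest counts, 803 of all genes passed in bone, 851 or 1156 in fat, 411 for fat against bone and 714 for fat against heart. The tissue counts were 73 to 80 between heart and bone, 73 to 79 between heart and fat and 47 to 51 between bone and fat. The shares of all genes for these tissue counts are not given here. Without heterozygous fat array 2, an alternative chosen after seeing the data, no tissue count moved by over 1.5 times. The causes were not tested, beyond the smaller number of arrays or genes that some alternatives hold. Probes near background bound low levels, as for Cox6a2 in fat.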
